A study of Homo sapiens with 4 samples.

Results

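Cullin-RING ligases transfer ubiquitin to their substrates through a cullin scaffold, which holds a small RING protein, RBX1 or RNF7, at one end and an adaptor with its substrate receptor at the other. The RING protein brings in an E2 enzyme loaded with ubiquitin, and the attachment of NEDD8, a ubiquitin-like protein, to the cullin activates the ligase. GLMN (glomulin) binds the RING domain of RBX1 and blocks access of the E2, and loss of GLMN in people causes glomuvenous malformations of the skin. CAND1 wraps around cullins that carry no NEDD8 and exchanges one substrate receptor for another, and CAND2, its paralog, is known mainly from muscle.

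The values described are the sgRNA counts of GLMN, CAND1 and CAND2, 3 of the 19112 genes in a pooled CRISPR-Cas9 knockout screen. All rows carrying these symbols were taken, which gave 12 of the 76441 targeting sgRNAs, 4 for each gene. The genes were selected on their role as cullin regulators after the fold changes of the screen had been seen, so every fold change below is a description and has no test.

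A549 cells, a human lung adenocarcinoma line, received the Brunello lentiviral sgRNA library at a multiplicity of infection of about 0.3 and were selected in puromycin for 1 week. They were then kept for 3 weeks either in 4 µM HQ461, a cytotoxic small molecule, or in 0.1% DMSO, its vehicle, to find knockouts that enrich under the compound. Both arms carried the same library, and the abundance of an sgRNA in genomic DNA stands for the abundance of the cells that carry it. The labels name 2 biological replicates per condition, but the count table has 1 column per condition, so no difference between HQ461 and DMSO has a replicate check. Neither the cut at each target nor the expression of the genes was measured in these libraries, so the identity of the cells and the level of CAND2 in A549 could not be examined.

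The HQ461 column held 16127620 reads and the DMSO column 14428845 reads. The median count of a targeting sgRNA was 110 with HQ461 and 152 with DMSO. Counts were divided by size factors from the median ratio (0.833 for HQ461, 1.20 for DMSO). The log2 fold change, HQ461 over DMSO, was taken after adding 1 to each normalized count, and the value of a gene is the median over its sgRNAs. Intervals given with an sgRNA are 95% exact conditional binomial (Clopper-Pearson) intervals of the log2 ratio of its 2 counts. These are PCR reads, so the intervals cover counting error only. The 997 non-targeting control sgRNAs with reads, which cut no gene, had a median log2 fold change of -0.04 with an SD of 0.87, and their 1st and 99th percentiles lay at -1.67 and 2.92.

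GLMN and CAND1 sgRNAs were more abundant with HQ461 than with DMSO, all 8 of them, whereas no CAND2 sgRNA was raised by as much as 2-fold. The median log2 fold change of all targeting sgRNAs was -0.008. Among them the lowest of these 8 stood at the 98.1 percentile and the highest CAND2 sgRNA at the 72.2. The gene log2 fold change was 8.43 for GLMN (346-fold), 3.95 for CAND1 (15.5-fold) and 0.39 for CAND2 (1.31-fold). These values placed GLMN at rank 3, CAND1 at rank 15 and CAND2 at rank 5198 of 19111 genes. The sets of 4 sgRNAs did not overlap. The lowest GLMN sgRNA stood 2.67 above the highest CAND1 sgRNA on the log2 scale, and the lowest CAND1 sgRNA stood 2.50 above the highest CAND2 sgRNA.

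**Figure D1:**
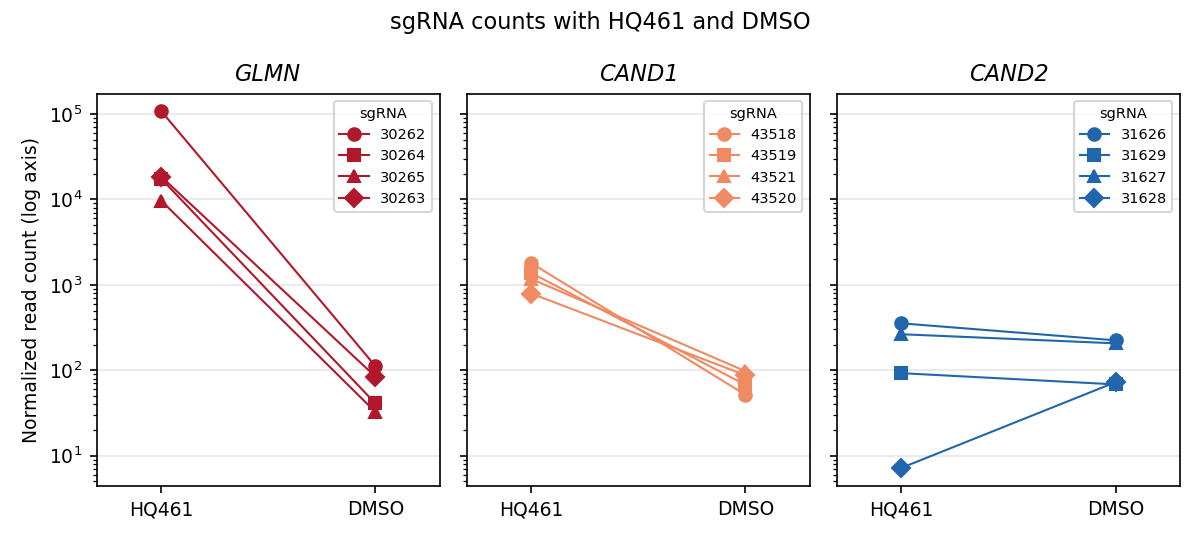
Normalized read counts (log axis) of the 4 sgRNAs of GLMN, CAND1 and CAND2 with HQ461 and with DMSO; each line is 1 sgRNA, named by its number in the library, and there is 1 count per condition. All lines of GLMN and CAND1 are higher with HQ461, and 1 CAND2 line, sgRNA 31628, is lower by a log2 fold change of -3.16.

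GLMN, the inhibitor of RBX1, had the highest counts of the 3 genes with HQ461 and the lowest sum with DMSO. Its sgRNA 30262 held 89554 reads with HQ461 and 134 with DMSO, a log2 fold change of 9.90 (interval 9.67 to 10.17). sgRNA 30264 held 14492 reads with HQ461 and 49 with DMSO, a log2 fold change of 8.70 (8.33 to 9.17). sgRNA 30265 held 8013 reads with HQ461 and 39 with DMSO, a log2 fold change of 8.17 (7.76 to 8.70). All of these guides therefore lay far above the controls, whose 99th percentile was 2.92. The last, sgRNA 30263, held 15337 reads with HQ461 and 101 with DMSO, a log2 fold change of 7.76 (7.49 to 8.07).

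The 4 GLMN sgRNAs ranked 8, 14, 17 and 23 among 76171 targeting sgRNAs by log2 fold change. By reads with HQ461 they ranked 4, 14, 43 and 12 in the whole library, in the same order of guides. With DMSO their ranks were 43897, 68400, 70445 and 54019, so none of them was abundant without the compound. In sum they held 127396 reads with HQ461 and 323 with DMSO. GLMN sgRNAs thus made up 0.790% of the HQ461 reads, with an exact Clopper-Pearson 95% range of 0.786% to 0.794%. In the DMSO library the share was 0.00224%, with a range of 0.00200% to 0.00250%.

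The GLMN total with HQ461 rested largely on 1 guide. sgRNA 30262 supplied 70.3% of the GLMN reads with HQ461 and 41.5% of those with DMSO. The fold change of the summed counts was 566 with all 4 sgRNAs and 287 without it. The gene log2 fold change was 8.17 without sgRNA 30262 and the rank was 3 whichever sgRNA was left out.

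CAND1, the exchange factor, had a smaller enrichment, which all 4 of its sgRNAs showed. Its sgRNA 43518 held 1493 reads with HQ461 and 62 with DMSO, a log2 fold change of 5.09 (interval 4.75 to 5.51). sgRNA 43519 held 1145 reads with HQ461 and 81 with DMSO, a log2 fold change of 4.33 (4.02 to 4.69). sgRNA 43521 held 975 reads with HQ461 and 117 with DMSO, a log2 fold change of 3.57 (3.31 to 3.88). All of these counts were higher with HQ461 than with DMSO. The lowest, sgRNA 43520, held 658 reads with HQ461 and 105 with DMSO, a log2 fold change of 3.16 (2.88 to 3.49).

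All CAND1 sgRNAs exceeded the 99th percentile of the controls, the lowest of them by little, and 2 of the 4 had a higher log2 fold change than every control (sgRNAs 43518 and 43519). In sum they held 4271 reads with HQ461 and 365 with DMSO. No guide dominated, since the largest supplied 35.0% of the CAND1 reads with HQ461 and 32.1% was the largest share with DMSO. With single sgRNAs left out the gene log2 fold change lay between 3.57 and 4.33 and the rank between 20 and 13. Ranked by its lowest sgRNA alone, CAND1 was 12th of 19111 genes and GLMN was 3rd. By the fold change of summed counts, where CAND1 stood at 16.8, its rank was 51.

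CAND2, the paralog of CAND1, had 3 sgRNAs near the middle of the library and 1 that was lower with HQ461. sgRNA 31626 held 295 reads with HQ461 and 269 with DMSO, a log2 fold change of 0.66 (interval 0.42 to 0.90). sgRNA 31629 held 77 reads with HQ461 and 82 with DMSO, a log2 fold change of 0.43 (-0.03 to 0.90), and this interval holds 0. sgRNA 31627 held 220 reads with HQ461 and 248 with DMSO, a log2 fold change of 0.35 (0.09 to 0.62). These values lay between the 69.3 and 81.2 percentiles of the non-targeting controls, within the spread of sgRNAs that cut no gene.

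The remaining CAND2 guide, sgRNA 31628, held 6 reads with HQ461 and 87 with DMSO, a log2 fold change of -3.16 (-4.82 to -2.15). It lay below the 1st percentile of the controls, while the other CAND2 guides lay above 0. CAND2 in sum had 598 reads with HQ461 and 686 with DMSO before scaling. The fold change of its summed normalized counts was 1.26 (log2 0.33), in the direction of the median. Because of that guide the mean over sgRNAs was -0.43, opposite in sign to the median of 0.39. Without it the mean was 0.48 and the median 0.43. Scaled by total counts, the CAND2 median was -0.29, since that scaling moves the median of all targeting sgRNAs to -0.69, and its sign is thus set by the scaling.

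The spread among sgRNAs of a gene was ordinary for GLMN and CAND1. The SD of the log2 fold change over 4 sgRNAs was 0.93 for GLMN, 0.85 for CAND1 and 1.83 for CAND2. The median of this SD over the 18858 genes with 4 measured sgRNAs was 0.96. CAND2 was more spread than 89.3% of these genes.

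**Figure D2:**
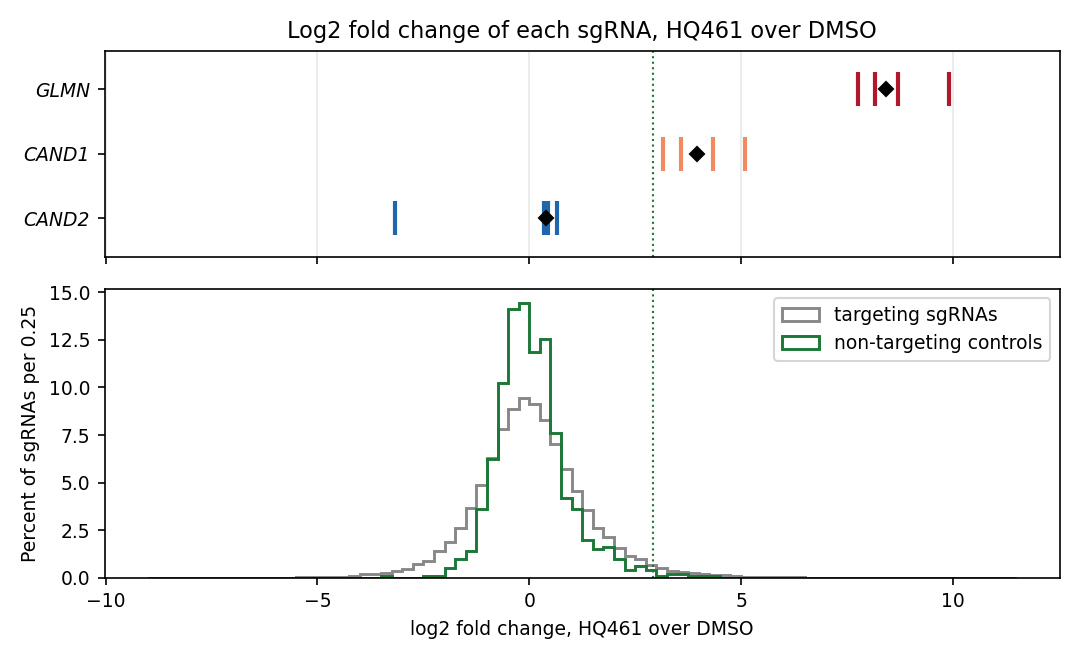
Upper panel, the log2 fold change (HQ461 over DMSO) of each sgRNA of GLMN, CAND1 and CAND2 as vertical marks, with the gene median as a black diamond; lower panel, the percent of the 76171 targeting sgRNAs and of the 997 non-targeting controls in bins of 0.25. The dotted line is the 99th percentile of the controls at 2.92, and all marks of GLMN and CAND1 lie to its right.

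An sgRNA or gene was counted as past the fold threshold at a log2 fold change of at least 2 (4-fold), or of at most -2 in the other direction. By this measure 8 of the 12 sgRNAs were past the threshold upward, 4 of GLMN and 4 of CAND1, where the share over all targeting sgRNAs was 6.63% and that over the controls was 3.21%. In the other direction 1 of 12, sgRNA 31628 of CAND2, was past it, against 4.87% of all targeting sgRNAs and 0.301% of controls. Above the 99th percentile of the controls stood the same 8 sgRNAs and 2.44% of all targeting sgRNAs. Among genes, 2 of the 3 had a median past the threshold upward, against 1.47% of all genes, and 0 of 3 downward, against 0.905%. In 0.230% of all genes (44 of 19111) every measured sgRNA was past the threshold upward, and GLMN and CAND1 were among them. The genes were chosen with this contrast known, so these counts are no evidence beyond the values themselves.

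Genes whose 4 sgRNAs were all past the threshold were few. Of the 18858 genes with 4 measured sgRNAs, 78.3% had no sgRNA past 4-fold upward, as had CAND2, and 18.0% had exactly 1. All 4 sgRNAs were past it in 0.228%, or 43 genes, as in GLMN and CAND1. It was not particular to them, since 9 of 45 other genes of cullin ligase activity with 4 measured sgRNAs also had all 4 past it.

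The counts with DMSO differed between the genes as well. The median count with DMSO was 75 for GLMN, 93 for CAND1 and 167.5 for CAND2, and the median over genes was 155. GLMN thus stood at the 12.4 percentile of genes, CAND1 at the 18.7 and CAND2 at the 55.4. No plasmid or starting population was analysed here, so a slower growth of the GLMN and CAND1 knockouts and a smaller share of these guides in the library cannot be told apart.

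Fold changes of sparse sgRNAs were more variable in this screen. When the targeting sgRNAs were divided by DMSO count into 4 bins of about equal size, 11.2% of the lowest bin (0 to 88 reads) were past 4-fold upward and 10.7% downward, while in the highest bin (250 to 1801 reads) these shares were 4.04% and 0.841%. The lowest bin held 6 of the 12 sgRNAs described here. They were 2 of GLMN (30264 and 30265), 2 of CAND1 (43518 and 43519) and 2 of CAND2 (31628 and 31629). The other sgRNAs of GLMN and CAND1 were in the second bin (89 to 152 reads), where 6.09% were past 4-fold upward. No GLMN, CAND1 or CAND2 sgRNA had fewer than 30 normalized counts with DMSO, so a minimum at that value left every one of them in place.

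GLMN (ENSG00000174842) lies on the minus strand of chromosome 1 from 92246402 to 92298987 in GENCODE 44 on GRCh38. CAND1 (ENSG00000111530) lies on the plus strand of chromosome 12 from 67269358 to 67319953, and CAND2 (ENSG00000144712) on the plus strand of chromosome 3 from 12796472 to 12834804. The gene median by chromosome was highest on chromosome 17, at 0.97, and next highest on chromosome 11, at 0.29. Around each of the 3 regulators the median was under 0. The other genes with any part within 2 Mb of the ends of the gene had a median log2 fold change of -0.17 around GLMN (26 genes), -0.38 around CAND1 (18 genes) and -0.24 around CAND2 (29 genes). The rest of chromosomes 1, 12 and 3 had medians of -0.19, -0.22 and -0.21. No neighbour of GLMN was above 0.94 and none of CAND1 was above 0.41, while 6 of the 29 neighbours of CAND2 had a higher value than CAND2.

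**Figure D3:**
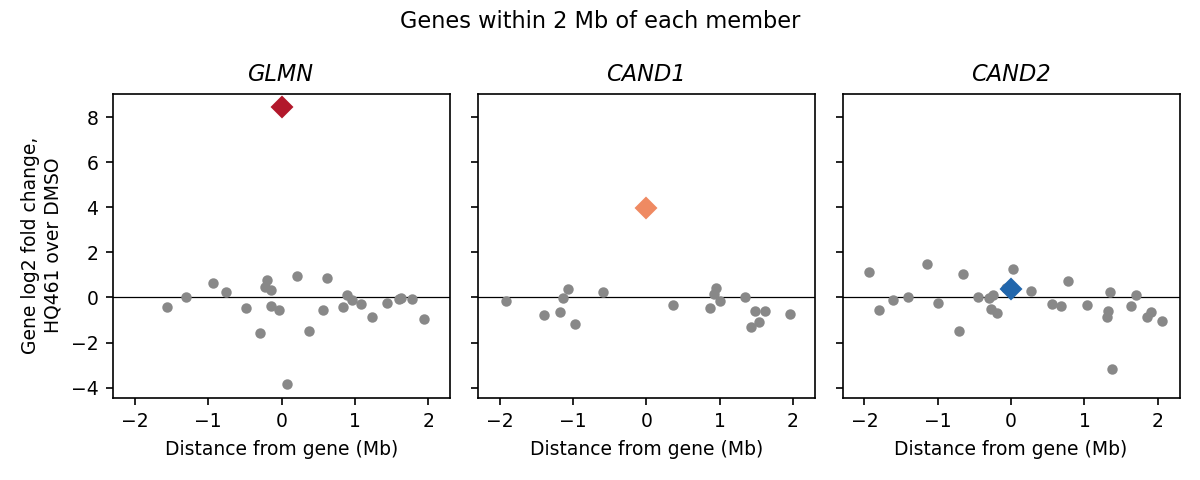
Gene log2 fold change (HQ461 over DMSO, median over sgRNAs) of GLMN, CAND1 and CAND2 (coloured diamonds) and of the other genes with any part within 2 Mb of its ends (grey points), plotted by distance between gene centres in Mb. GLMN at 8.43 and CAND1 at 3.95 stand apart from their neighbours, and CAND2 at 0.39 lies among its own.

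CAND1 and CAND2 are close in sequence, which bears on whether a guide could cut both. The MANE Select models in GENCODE 44 encode proteins of 1230 residues for CAND1 and 1236 for CAND2, which were 62.4% identical over a global alignment, and the coding sequences were 62.7% identical. GLMN has 594 residues in 18 coding exons, and CAND1 and CAND2 have 15 coding exons each. The coding exons held 131 possible Cas9 sites (20 bases followed by NGG, either strand, cut inside the coding exon) in GLMN, 295 in CAND1 and 740 in CAND2. Of the 295 sites of CAND1, 0 had an exact match or a match with 1 mismatch among the sites of CAND2, 2 had one with 2 mismatches and 6 had one with up to 3. No site of GLMN came nearer than 5 mismatches to a site of either CAND gene. The table gives sgRNAs by number without their sequences, so which of these sites the library uses was not analysed here.

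The 2 closest pairs of sites are shown because they mark the nearest that these sites of CAND1 come to those of CAND2. Stretches of CAND2 that are not such sites were not compared. Each is written 5′ to 3′ on the strand that the guide matches, from GRCh38, with the bases that differ between the genes in capitals. The first pair lies on the plus strand at chr12:67269764-67269783 in CAND1 and chr3:12796767-12796786 in CAND2, and the second on the minus strand at chr12:67269770-67269789 and chr3:12796773-12796792. Counted from 1 at the 5′ end, with the base of CAND1 first, the differences are A2G and T20C in the first pair and T1G and A7G in the second.
CAND1, first pair: cAtccagcgacaaggacttT
CAND2, first pair: cGtccagcgacaaggacttC
CAND1, second pair: TcacctAaagtccttgtcgc
CAND2, second pair: GcacctGaagtccttgtcgc

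Among 47 other genes of cullin ligase activity, 11 had a median log2 fold change of at least 2 and 4 one of at most -2. Over all genes these shares were 1.47% and 0.905%, and they are also the background for the counts in each list below. The lists were drawn up with earlier results of these data known, so the counts are no evidence beyond the values themselves. The median over the 47 genes was 0.07 (-0.02 over all genes). Only 2 of the 47 stood above GLMN. They were UBE2G1, an E2 that extends ubiquitin chains, at 10.49 and DDB1, the adaptor of CUL4, at 10.25. CAND1 was exceeded by these and by CUL4B, RBX1, DDA1 and NAE1, and CAND2 by 20 of the 47. UBE2G1 lies on chromosome 17 and DDB1 on chromosome 11, the chromosomes with the highest medians, and their part in these 2 values was not tested.

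Of the cullins and RING proteins, 3 of 10 were past 4-fold upward. RBX1, the protein that GLMN binds, had a log2 fold change of 6.45, with 59043 reads with HQ461 and 166 with DMSO over 4 sgRNAs. CUL4B and CUL4A, the cullins that use DDB1, stood at 7.51 and 2.78. CUL1, CUL3 and CUL5, which CAND1 also binds, were between 0.18 and 1.39, and RNF7, the RING protein paired with CUL5, was at 0.49. Each of these genes had 1 of 4 sgRNAs past 4-fold upward, as had 18.0% of genes with 4 measured sgRNAs. The sgRNAs of CUL3 ran from -3.74 to 3.62. CUL2, the scaffold of the VHL ligase, was at -2.11, on 37 reads with HQ461 and 220 with DMSO. Among 5 adaptors DDA1, a small DDB1 partner, was past the threshold beside DDB1, at 5.88, while SKP1 and both elongins (TCEB1 and TCEB2 in the table) were not.

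Of 10 genes of NEDD8 attachment, 3 were past 4-fold upward and 0 downward. NAE1 and UBA3, the subunits of the NEDD8 activating enzyme, stood at 4.20 and 2.27, and UBE2M, the E2 that serves RBX1-bound cullins, at 3.70. NEDD8 itself had the lowest value of the list, -0.30, on 203 reads with HQ461 and 51 with DMSO. Only 1 of its 4 sgRNAs was past the threshold, at 3.88. UBE2F, the E2 paired with RNF7, was at 1.53, and the DCN-like proteins, which help to attach NEDD8, ran from -0.27 (DCUN1D2) to 1.22 (DCUN1D3). CAND1 at 3.95 thus lay between NAE1 and UBE2M in value.

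Of 10 genes of NEDD8 removal, 1 was past 4-fold upward and 3 downward. SENP8, which matures NEDD8 and clears it from proteins other than cullins, stood at 3.70, with 3 of its 4 sgRNAs past the threshold. The 3 genes past it downward were COP9 signalosome subunits, COPS6 at -3.10, COPS8 at -2.60 and GPS1 at -2.15. The medians of the 9 subunits ran from -3.10 (COPS6) to -0.63 (COPS5), and the median over all genes was -0.02. Reads with HQ461 and with DMSO were 240 and 50 over the sgRNAs of COPS6 and 14 and 58 over those of GPS1. For COPS8 they were 78 and 428. The summed reads of COPS6 were thus higher with HQ461, opposite to its median. In the same order, COPS4 had 132 and 131 reads, and COPS2 had 2 and 11 over 2 measured sgRNAs. These reads are before scaling. After it the COPS4 sum was also higher with HQ461, opposite to its median of -0.91. The sgRNAs of COPS6 ranged from -3.75 to 6.36, a spread that none of GLMN, CAND1 and CAND2 had.

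Of 9 E2 and RING-between-RING enzymes, UBE2G1 and UBE2D3, at 10.49 and 3.45, were past the threshold. UBE2D3 had 94 reads with DMSO and 3 of its 4 sgRNAs past 4-fold upward. The RING-between-RING enzymes ARIH1 and ARIH2 were at -0.52 and 0.81. UBE2D1, UBE2D2 and UBE2D4 ran from -0.49 to 0.68, and CDC34, the E2 that extends chains for CUL1 ligases, was at 0.07. FKBP1A and MET, proteins reported to bind GLMN, stood at 1.15 and -0.61. COMMD1, which competes with CAND1 for cullins, was at -0.49.

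**Figure D4:**
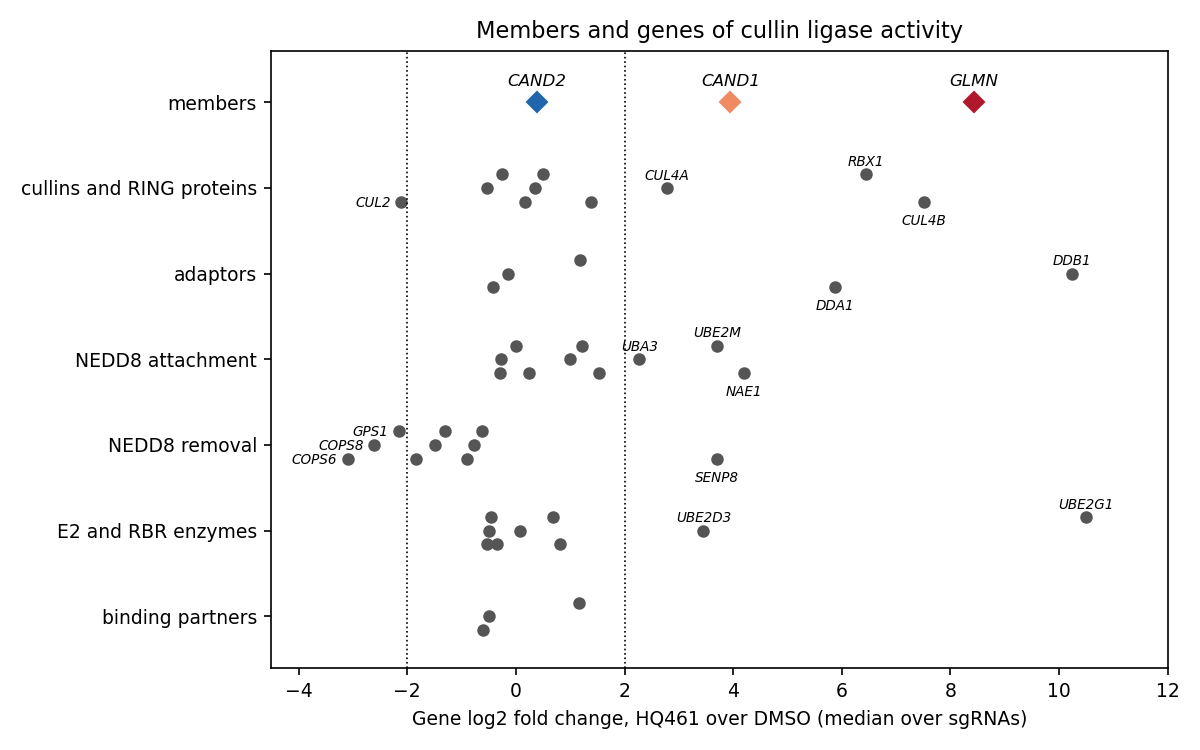
Gene log2 fold change (HQ461 over DMSO, median over sgRNAs) of GLMN, CAND1 and CAND2 in the top row and of 47 other genes in 6 lists (one point per gene, spread vertically for legibility), with names for genes past the dotted lines at -2 and 2. Only UBE2G1 and DDB1 lie to the right of GLMN, and CAND2 lies among the genes near 0.

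The genes nearest in value to each regulator were taken as the 2 next above and the 2 next below in rank, over 2 columns of counts. For GLMN these were UBE2G1 and DDB1 above and CUL4B (7.51) and RBX1 (6.45) below, so the nearest was CUL4B at a difference of 0.92. For CAND1 they were NAE1 (4.20) and PRKRIP1 (4.17) above and PSMA7 (3.92) and SCD (3.83) below. PSMA7, a subunit of the 20S proteasome, and SCD, a fatty acid desaturase, each had at least 1 sgRNA under -2. Their reads with DMSO were only 34 and 26. All CAND1 sgRNAs were above 3, as were those of NAE1 (lowest 3.06), and the lowest PRKRIP1 sgRNA was at 2.56. For CAND2 the nearest genes were MROH8, RAB3IP, PNLIPRP2 and CYP4F8, all within 0.0004 of its value, and 27.2% of genes ranked above CAND2.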

How the data were processed

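Genomic DNA of A549 cells was amplified over the sgRNA cassette and sequenced. The authors counted reads per sgRNA with MAGeCK 0.5.9.2 and deposited raw counts without normalization, in 1 column per condition. The sources used here do not state how the 2 labelled replicates of a condition became 1 column. Each column was treated as 1 pooled sample of its labelled condition.

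The 273 sgRNAs at 0 in both columns were removed, and all 19111 genes left were processed together in Python 3.11.15 (numpy 2.4.6, scipy 1.17.1, pandas 2.3.3, biopython 1.88). No test was run, since 1 column per condition holds no spread between cultures, and the planned replicate fits could not be made. The genes, lists and named-gene rules were chosen with earlier results of these data known. The other genes named are those past 4-fold in the lists, a few set beside them and the nearest in rank.

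Alternatives were scaling by total counts, controls or TMM (edgeR 4.0.16), other added counts, a minimum DMSO count, other gene summaries and other thresholds. The calculation was tested on simulated data. Of the genes, 17698 were placed by symbol in GENCODE 44, 865 by an older symbol and 548 not at all. The proteins were translated from GENCODE, not taken from RefSeq as planned.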

Additional observations from a re-analysis of the deposited data

How the results depend on the processing

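No setting changed the number of GLMN or CAND1 sgRNAs past the threshold (4 each), and GLMN kept rank 3 in all settings but the minimum of 30 normalized counts with DMSO, where it ranked 4. Scaling by total counts gave log2 fold changes of 7.75 for GLMN, 3.27 for CAND1 and -0.29 for CAND2, because that scaling lowers all values. The mean over sgRNAs gave 8.63 for GLMN and -0.43 for CAND2, and summed counts gave 9.15 for GLMN. With single sgRNAs left out, GLMN ran from 8.17 to 8.70 and CAND1 from 3.57 to 4.33. Summed counts put CAND1 at rank 51. The rank of CAND2 was 14377 by the mean, 8427 by summed counts and 3414 by the second lowest sgRNA. The 4 pathway genes past 4-fold downward became 1 with 5 added to each normalized count, 7 at a threshold of 1 and 1 at a threshold of 3. In all 21 values moved and 109 did not. No log2 fold change of GLMN or CAND1 changed direction. That of CAND2 changed sign with scaling by total counts and with the mean over sgRNAs. Single pathway genes were not followed across the settings. For values without replicates, a move is one larger than the counting error of the summed counts of the gene. For ranks and counts, a move is one of over 1.5 times. No paired analysis was possible because each condition has a single pooled column of counts, so the replicate block and leaving out a replicate were not run. Depth with DMSO, 39 to 269 reads per sgRNA, limits the precision of each fold change.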
